A study of Mus musculus with 6 samples.

Results

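Expression of 9 genes that encode feedback inhibitors of MAP kinase signalling was examined in long-term (LT) stem cells of chronic myelogenous leukaemia (CML) with and without *Gdpd3*, which encodes a lysophospholipase D. The genes were the phosphatases *Dusp1*, *Dusp2*, *Dusp4*, *Dusp5* and *Dusp6*, the Sprouty genes *Spry1* and *Spry2*, and the Sprouty-related genes *Spred1* and *Spred2*. They were taken by gene name from a table of 36976 genes, and all 9 members were found and passed the filter on low values. Their values had no part in the choice rule, but earlier results of these libraries were known when the set was proposed.

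RNA-Seq had been performed on 3 libraries from *Gdpd3*+/+ and 3 from *Gdpd3*-/- tet-CML mice, numbered 1 to 3 and 5 to 7 in the labels. All animals were C57BL/6 mice that carried the transgenes SCL-tTA and TRE-BCR-ABL1, so BCR-ABL1 was expressed only where the SCL promoter drives tTA, and doxycycline (Dox) was withdrawn at 5 weeks of age to induce it. The LT-CML stem cells, sorted from hind limb marrow as Lineage- Sca-1+ cKit+ cells that were CD150+, CD48- and CD135-, were taken 5 weeks after induction. The *Gdpd3*-/- strain carries a short deletion made by genome editing near the start of the coding sequence. Cells came from 22 male and 12 female *Gdpd3*+/+ mice and from 5 male and 5 female *Gdpd3*-/- mice, and how the animals were divided among libraries is not given in the sources used here. Expression was given as FPKM, fragments mapped to a gene scaled by its length in kilobases and by library size. No healthy stem cells and no animals without BCR-ABL1 were among these libraries.

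Growth factor receptors and BCR-ABL1 signal through Ras, Raf, MEK and ERK, and related cascades act through JNK and p38. Dual-specificity phosphatases (DUSPs) remove the activating phosphates from these kinases, whereas Sprouty and Spred proteins act above them, on Ras and Raf. Many of these inhibitors are themselves induced by the cascade that they restrain, and *Dusp1* is a classical immediate early gene.

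Some features of the libraries moved with genotype. *Gdpd3* itself was at 7.30, 3.29 and 2.95 FPKM in *Gdpd3*+/+ and at 0.110, 0.0129 and 0.681 FPKM in *Gdpd3*-/- libraries, with no overlap (adjusted p = 0.0588 by limma). Of the sorting markers, *Kit*, *Ly6a* and *Slamf1* were expressed in all libraries and none was called, while *Flt3*, which encodes the CD135 excluded by the sort, was at 9.80 to 11.01 FPKM in *Gdpd3*+/+ and at 36.8 to 46.5 FPKM in *Gdpd3*-/- libraries. *Flt3* was called higher (adjusted p = 0.00562 by limma), as were 1.09% of all genes tested. All 20 skeletal muscle markers were higher in every *Gdpd3*-/- library, with a summed level of 928.3 to 1379 FPKM in *Gdpd3*+/+ and 2282 to 17252 FPKM in *Gdpd3*-/- libraries. Of the 8 neutrophil markers 7, and all 8 plasma cell markers, were lower in every *Gdpd3*-/- library. Their sums were 28816 to 31973 against 8012 to 13794 FPKM and 2326 to 2984 against 1068 to 1928 FPKM. Of these markers 4 neutrophil and 3 plasma cell genes were called lower, against 0.616% of all genes tested, and no muscle marker was called. Over all genes tested, 23.5% were higher and 8.27% lower in every *Gdpd3*-/- library. *Cd48*, also excluded by the sort, was at 39.8 to 44.8 and 51.6 to 92.2 FPKM, and the 6 stem cell markers summed to 177.7 to 195.3 and 207.0 to 240.3 FPKM, with no call. Lineage markers (6 found, *Ly76* not among them) summed to 106.0 to 145.7 and 88.6 to 104.5 FPKM, and 5 erythroid markers to 1532 to 2575 and 783.9 to 2429 FPKM, also with no call. Of 9 endothelial and stromal markers, which summed to 20.5 to 24.8 and 24.6 to 32.7 FPKM, *Pdgfrb* was called higher. The depth inferred for the *Gdpd3*-/- libraries was lower, at 2.13 to 3.64 against 4.98 to 6.28 Gb. The part of these differences in the results was not tested.

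Of the 9 genes, *Dusp1*, *Dusp2* and *Dusp5* were higher in *Gdpd3*-/- than in *Gdpd3*+/+ cells, each by about 2.06-fold to 2.17-fold in mean FPKM, and no gene was lower. The comparison used limma, a linear model with a moderated spread, on log2(FPKM + 0.1) over 24689 genes, and a gene was called at a Benjamini-Hochberg adjusted p under 0.05. Among all genes tested, 1.09% were called higher and 0.616% lower, against 3 and 0 of the 9 members. That balance of 270 higher and 152 lower genes turned with the scaling, to 112 and 254 under trimmed-mean scaling and to 119 and 206 under quantile normalization. An unadjusted limma p under 0.05 was found for 3 of the 9 members (33.3%), against 22.2% of all genes tested. By that measure the members were nearer the background than by the calls. All 3 called members encode phosphatases that act in the nucleus, as does *Dusp4*, which was not called (adjusted p = 0.418 by limma). Of the member phosphatases only that of *Dusp6* is cytoplasmic. The cytoplasmic ERK phosphatase gene *Dusp7*, not a member, missed the limit (adjusted p = 0.0867 by limma). Whether location in the cell bears on the calls was not tested. The median log2 fold change of the 9 genes was 0.48, against 0.24 for all genes tested, and 8 of the 9 values were above 0. These calls were not stable to every choice. None of the 9 was called without any 1 of the *Gdpd3*+/+ libraries, where at most 21 of all genes were called. The fold changes of the 3 genes stayed between 0.80 and 1.37 on the log2 scale in all 16 settings.

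**Figure D1:**
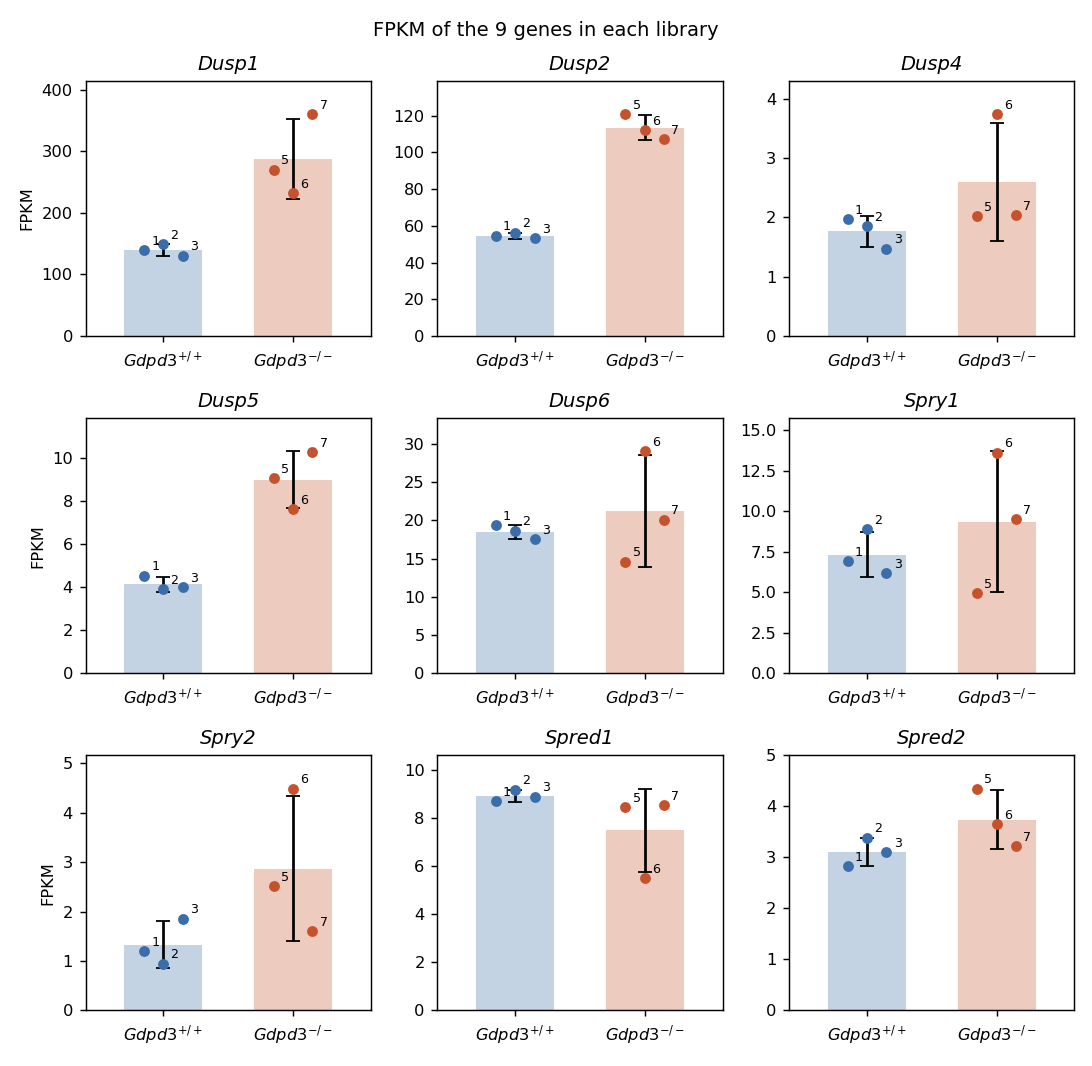
FPKM of each gene (vertical axes from 0, with a separate scale for each gene) in the 3 Gdpd3+/+ libraries (blue) and the 3 Gdpd3-/- libraries (orange). Points are libraries with their replicate numbers, bars are means and error bars are SD. For Dusp1, Dusp2 and Dusp5 the orange points all lie far above the blue ones, whereas for Dusp6, Spry1, Spry2 and Spred2 they overlap.

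The regions just before the transcription start are shown for the 3 called genes, to let their sequences be compared. Each is the 250 bases before the start, taken from RefSeq on GRCm38.p6, with searched motifs in capitals. The motifs were TGACTCA (the AP-1 site), TGACGTCA (the cyclic AMP response element), the serum response element (CArG box) and CCGGAAGT (an ETS site), on both strands. Of the 9 genes, 8 had an entry in the promoter table, and *Dusp4* was not analysed here. The windows are chr17:26508473-26508722 on the minus strand for *Dusp1*, chr2:127335909-127336158 on the plus strand for *Dusp2* and chr19:53528895-53529144 on the plus strand for *Dusp5*.
Dusp1: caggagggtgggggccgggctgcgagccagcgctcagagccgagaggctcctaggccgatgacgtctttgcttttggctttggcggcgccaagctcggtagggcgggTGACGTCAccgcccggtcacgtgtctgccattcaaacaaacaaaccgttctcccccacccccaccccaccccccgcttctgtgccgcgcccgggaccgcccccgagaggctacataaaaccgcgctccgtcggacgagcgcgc
Dusp2: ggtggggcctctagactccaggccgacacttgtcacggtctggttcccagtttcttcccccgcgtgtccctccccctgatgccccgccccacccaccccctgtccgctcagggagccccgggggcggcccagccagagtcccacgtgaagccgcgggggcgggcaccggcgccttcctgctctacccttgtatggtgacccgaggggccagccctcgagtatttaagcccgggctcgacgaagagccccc
Dusp5: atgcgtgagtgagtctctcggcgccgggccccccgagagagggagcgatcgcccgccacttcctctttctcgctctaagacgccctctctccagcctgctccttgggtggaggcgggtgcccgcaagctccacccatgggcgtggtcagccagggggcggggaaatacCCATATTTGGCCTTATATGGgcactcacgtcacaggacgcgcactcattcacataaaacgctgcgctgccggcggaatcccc

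The *Dusp1* window held 1 TGACGTCA, at 143 to 136 bases before the start, a motif present in 1.55% of the 32851 promoter windows of the same length. The *Dusp5* window held 2 adjacent serum response elements, at 82 to 73 and 72 to 63 bases before the start, and 1.47% of all windows held at least 1. None of the 4 motifs was found in the *Dusp2* window, nor in those of *Dusp6*, *Spry1*, *Spry2*, *Spred1* and *Spred2*. TGACTCA occurred in 4.46% and CCGGAAGT in 2.88% of all windows, and in none of the 8 windows of the members. These matches describe letters in a fixed window and carry no measurement of binding. The 3 called genes thus had no searched motif in common.

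The phosphatases were considered first. *Dusp1*, whose nuclear product inactivates p38, JNK and ERK, is on the minus strand at chr17:26642535-26645464 (mm9). Its FPKM was 139.7, 149.1 and 130.1 in the *Gdpd3*+/+ libraries 1 to 3 and 269.9, 232.1 and 359.9 in the *Gdpd3*-/- libraries 5 to 7. Every *Gdpd3*-/- library was above every *Gdpd3*+/+ library, and the *Gdpd3*-/- libraries were more spread, with replicate 7 the highest. The means were 139.7 ± 9.51 and 287.3 ± 65.6 FPKM (SD, n = 3 each), a 2.06-fold difference. The log2 fold change was 1.02 (SE 0.17, 95% interval 0.61 to 1.42, adjusted p = 0.0469 by limma), which was 0.78 above the median of all genes. In bulk RNA of sorted cells, a change in the share of cells that express a gene and a change in RNA per cell cannot be told apart.

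*Dusp2*, a nuclear ERK phosphatase known mainly from blood cells, lies at chr2:127161895-127164112 (mm9, plus strand) and had the tightest replicates of the 3. It was at 54.6, 56.4 and 53.2 FPKM in *Gdpd3*+/+ and at 120.7, 112.1 and 107.3 FPKM in *Gdpd3*-/- cells. The genotypes were clearly apart, and no single library carried the difference. The means were 54.7 ± 1.61 and 113.3 ± 6.83 FPKM (SD, n = 3 each), a 2.07-fold difference with a log2 fold change of 1.05 (SE 0.09, 95% interval 0.84 to 1.26, adjusted p = 0.00996 by limma). *Dusp2* was also the member called most often when the processing was varied, in 11 of 15 alternatives.

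*Dusp5*, which encodes a nuclear phosphatase selective for ERK, lies at chr19:53603599-53616921 (mm9, plus strand) and was expressed far lower per length than either. Its FPKM was 4.53, 3.89 and 3.98 in *Gdpd3*+/+ and 9.04, 7.62 and 10.2 in *Gdpd3*-/- libraries. The genotypes did not overlap, and replicates 7, 5 and 6 stood in the same descending order as for *Dusp1*. The means were 4.13 ± 0.35 and 8.97 ± 1.32 FPKM (SD, n = 3 each), and the log2 fold change was 1.09 (SE 0.17, 95% interval 0.68 to 1.51, adjusted p = 0.0443 by limma).

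The nuclear phosphatase gene *Dusp4* (chr8:35870351-35882948, mm9, plus strand), whose product acts on ERK and JNK, did not pass the test. It was at 1.97, 1.85 and 1.47 FPKM in *Gdpd3*+/+ and at 2.02, 3.74 and 2.03 FPKM in *Gdpd3*-/- libraries. The *Gdpd3*-/- values were all above the others, but replicates 5 and 7 only just, and replicate 6 made most of the difference in means. The log2 fold change was 0.48 (95% interval -0.29 to 1.26, adjusted p = 0.418 by limma), so the interval covered both no difference and one as large as that of *Dusp1*.

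*Dusp6* encodes the cytoplasmic phosphatase of ERK, and its transcript is widely used as a readout of ERK activity. The gene lies at chr10:98725865-98730122 (mm9, plus strand). Its FPKM was 19.4, 18.6 and 17.6 in *Gdpd3*+/+ and 14.6, 29.0 and 20.1 in *Gdpd3*-/- libraries. The *Gdpd3*-/- libraries lay on both sides of the others, with replicate 5 the lowest and replicate 6 the highest of all 6. The means of 18.5 ± 0.92 and 21.2 ± 7.27 FPKM (SD, n = 3 each) did not differ beyond the spread, and the log2 fold change was 0.14 (95% interval -0.44 to 0.72, adjusted p = 0.737 by limma). The upper bound of that interval was below the values fitted for *Dusp1*, *Dusp2* and *Dusp5*. The interval still overlapped those of *Dusp1* (from 0.61) and *Dusp5* (from 0.68), but not that of *Dusp2* (from 0.84).

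Ratios to *Dusp6* within a library do not change when the library is scaled by a single factor, though they can change under quantile normalization. The ratio of *Dusp2* to *Dusp6* was 2.82, 3.03 and 3.03 in *Gdpd3*+/+ and 8.27, 3.86 and 5.35 in *Gdpd3*-/- libraries, and that of *Dusp5* was 0.234, 0.209 and 0.227 against 0.619, 0.263 and 0.511. Both ratios were higher in every *Gdpd3*-/- library, least so in replicate 6. The ratio of *Dusp1* to *Dusp6* was 7.21, 8.01 and 7.41 in *Gdpd3*+/+ and 18.5, 8.002 and 17.9 in *Gdpd3*-/- libraries, so replicate 6 fell within the range of the *Gdpd3*+/+ libraries. These ratios were chosen after the values were seen and are given without a test.

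The Sprouty genes, whose products block receptor signals on their way to Ras and Raf, showed no called difference. *Spry1* (chr3:37538869-37543520, mm9, plus strand) was at 6.92, 8.90 and 6.17 FPKM in *Gdpd3*+/+ and at 4.95, 13.6 and 9.53 FPKM in *Gdpd3*-/- libraries. As for *Dusp6*, replicates 5 and 6 were the lowest and the highest of all 6, and the genotypes overlapped. The log2 fold change was 0.25 (95% interval -0.63 to 1.13, adjusted p = 0.691 by limma).

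*Spry2* (chr14:106291166-106296036, mm9, minus strand) had a mean 2.15-fold higher in *Gdpd3*-/- cells, as large as for the called phosphatases. The values were 1.195, 0.948 and 1.85 FPKM in *Gdpd3*+/+ and 2.52, 4.49 and 1.603 FPKM in *Gdpd3*-/- libraries. Replicate 7 was below the highest *Gdpd3*+/+ library, so the genotypes overlapped. The log2 fold change of 0.98 had a wide interval (95% interval -0.08 to 2.05, adjusted p = 0.252 by limma). *Spry2* rested on about 56 to 227 reads a library, against 10353 to 16830 for *Dusp1*.

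The Spred proteins bring neurofibromin, which turns Ras off, to the membrane. *Spred1* (chr2:116947110-117008015, mm9, plus strand) was the only member with a negative log2 fold change. Its FPKM was 8.71, 9.19 and 8.90 in *Gdpd3*+/+ and 8.46, 5.51 and 8.55 in *Gdpd3*-/- libraries. All *Gdpd3*-/- values were below the others, but replicates 5 and 7 were within a small margin, and the lower mean rested on replicate 6. The log2 fold change was -0.28 (95% interval -0.76 to 0.21, adjusted p = 0.455 by limma) with all libraries and -0.07 without replicate 6.

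*Spred2* (chr11:19824378-19924029, mm9, plus strand) was at 2.82, 3.39 and 3.10 FPKM in *Gdpd3*+/+ and at 4.35, 3.65 and 3.21 FPKM in *Gdpd3*-/- libraries. The ranges overlapped through replicate 7. Its log2 fold change was 0.25 (95% interval -0.24 to 0.75, adjusted p = 0.501 by limma), close to the median of all genes.

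Whether the genotypes overlapped was also counted for all genes, because the *Gdpd3*-/- libraries were broadly shifted. Of the members, *Dusp1*, *Dusp2*, *Dusp4* and *Dusp5* had every *Gdpd3*-/- library above every *Gdpd3*+/+ library, and *Spred1* had every one below. Among all genes tested these patterns were common, at 23.5% above and 8.27% below. The count of 4 of 9 is therefore less far from the background than the count of 3 calls. A two-sided exact permutation test of mean FPKM gave p = 0.1 for each of these 5 genes, the smallest that 20 assignments can give, and p = 0.2 to 0.7 for the other 4.

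The order of the 9 levels, compared per length in FPKM, was led by *Dusp1*, *Dusp2* and *Dusp6* in both genotypes, each separated from the next beyond its range. In *Gdpd3*+/+ cells *Spred1* and *Spry1* followed with overlapping ranges, then *Dusp5*, then *Spred2*, and last *Dusp4* and *Spry2*, which overlapped. In *Gdpd3*-/- cells *Dusp5* stood beside *Spry1* and *Spred1*, and these neighbours overlapped. There *Spred2*, *Spry2* and *Dusp4* came last, also with overlapping neighbours. *Dusp5* thus lay below both *Spry1* and *Spred1* without overlap in *Gdpd3*+/+ but not in *Gdpd3*-/- cells.

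The 3 *Gdpd3*-/- libraries differed among themselves more than the *Gdpd3*+/+ ones. The median SD of log2(FPKM + 0.1) over the members was 0.12 in *Gdpd3*+/+ and 0.36 in *Gdpd3*-/- libraries, and over all genes tested it was 0.15 and 0.52. Replicate 6 was the highest of all 6 libraries for *Dusp4*, *Dusp6*, *Spry1* and *Spry2*, 4 of the 9 members, and the lowest for *Spred1*. Replicate 7 was the highest for *Dusp1* and *Dusp5*, and replicate 5 for *Dusp2* and *Spred2*. The members thus did not vary together across the *Gdpd3*-/- libraries.

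**Figure D2:**
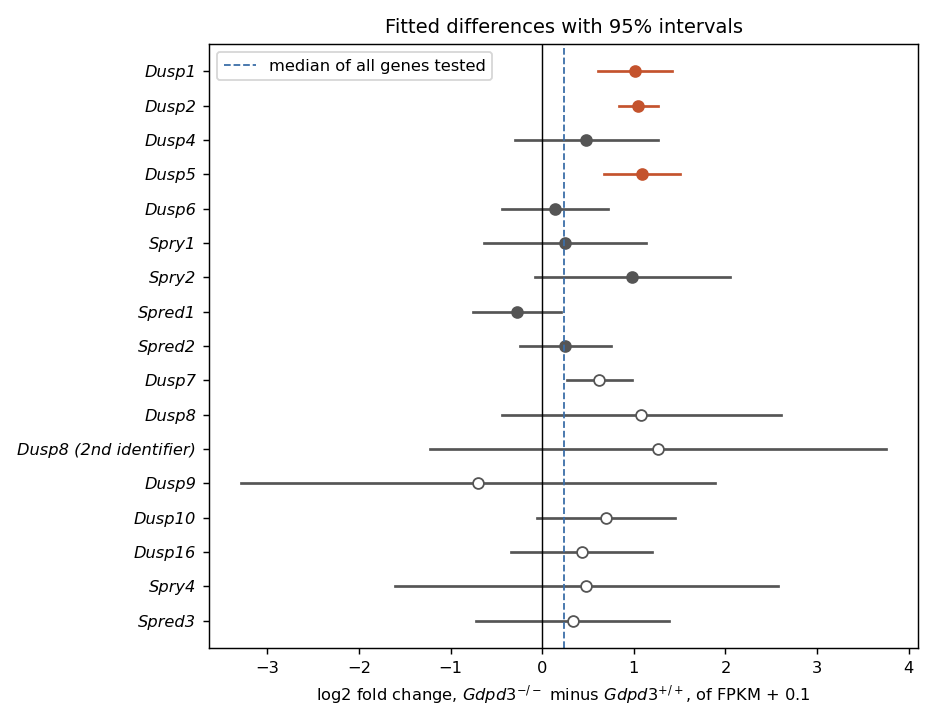
Fitted log2 fold change of FPKM + 0.1, Gdpd3-/- minus Gdpd3+/+ (horizontal axis), for the 9 members (filled points) and their relatives (open points), with 95% intervals from 3 libraries a genotype. Orange marks an adjusted p under 0.05, and the dashed line is the median of all genes tested, 0.24. The intervals of Dusp1, Dusp2 and Dusp5 lie wholly above that line, and so does that of the relative Dusp7, which was not called.

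The other phosphatases of MAP kinases gave no call among 6 measured rows, *Dusp8* being listed under 2 identifiers. An unadjusted limma p under 0.05 was found for 1 row, against 22.2% of all genes tested. That row was *Dusp7*, which encodes a cytoplasmic ERK phosphatase. It was at 4.66, 5.04 and 5.41 FPKM in *Gdpd3*+/+ and at 7.93, 8.28 and 7.23 FPKM in *Gdpd3*-/- libraries, with no overlap, and its log2 fold change of 0.62 missed the limit (adjusted p = 0.0867 by limma). *Dusp10* and *Dusp16*, whose products act on JNK and p38, also had all *Gdpd3*-/- libraries above the others, with log2 fold changes of 0.70 (adjusted p = 0.251 by limma) and 0.43 (adjusted p = 0.465 by limma). *Dusp8*, likewise a phosphatase of JNK and p38, and *Dusp9*, an ERK phosphatase, were at 2.004 FPKM or less in every library and overlapped. The fitted log2 fold changes of the *Dusp8* rows were 1.08 and 1.26, and that of *Dusp9* was -0.70 although its mean FPKM was 1.28-fold higher in *Gdpd3*-/- cells. The median of the 6 rows was 0.66.

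Of the other Sprouty and Spred genes, *Spry4* and *Spred3* were measured, and neither was called or had an unadjusted limma p under 0.05. *Spry4*, a further ERK-induced Sprouty gene, was at 0.171, 0.424 and 0.605 FPKM in *Gdpd3*+/+ and at 0.0920, 1.63 and 0.720 FPKM in *Gdpd3*-/- libraries. As for *Spry1*, replicate 5 was the lowest and replicate 6 the highest library. *Spred3* had a log2 fold change of 0.34 (adjusted p = 0.654 by limma) at 0.524 FPKM or less.

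The kinases and adaptors above the phosphatases were described next. None of the 20 Ras-ERK genes was called, and their median log2 fold change was -0.07. An unadjusted limma p under 0.05 was found for 2 of them, or 10%, against 22.2% of all genes tested. The genotypes did not overlap for 7 of these genes. In *Gdpd3*-/- cells 3 of the 7 were higher and 4 were lower, where the shares over all genes tested were 23.5% and 8.27%. The largest of these differences were in *Braf*, a Raf kinase, at -0.56 on the log2 scale (adjusted p = 0.229 by limma), in *Map2k2*, which encodes a MEK kinase, at 0.42 (adjusted p = 0.0738 by limma), and in *Rasa2*, a Ras GTPase-activating protein, at -0.34 (adjusted p = 0.315 by limma). Of 11 genes of the JNK and p38 cascades none was called, with a median of 0.05, and 1 (9.09%) had an unadjusted limma p under 0.05. There the genotypes did not overlap for the p38 kinase *Mapk13* at -1.37 and *Mapk12* at 1.201. The JNK kinase *Mapk10* was listed at 0 in all *Gdpd3*+/+ libraries and at 0.226 FPKM or less in the *Gdpd3*-/- ones. It passed the filter only through the *Gdpd3*-/- libraries, so its lack of overlap carries no weight. *Mapk12* was at 15.9 FPKM in replicate 6 and at 5.92 FPKM or less in the other 5 libraries.

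Transcripts that ERK signalling is known to induce gave no call either, and 4 of the 12 tested had an unadjusted limma p under 0.05, against 5493 (22.2%) of all genes tested. Their median log2 fold change was 0.65, and 5 of the 12 had every *Gdpd3*-/- library above the others, against 23.5% of all genes tested. *Fos*, which encodes a subunit of AP-1, was at 179.9, 219.9 and 189.4 FPKM in *Gdpd3*+/+ and at 364.6, 321.2 and 647.2 FPKM in *Gdpd3*-/- libraries. Its log2 fold change was 1.11 (adjusted p = 0.0840 by limma), as large as those of the called phosphatases but with a wider spread. The immediate early gene *Ier2* was at 0.79 (adjusted p = 0.138 by limma) and *Ccnd1*, which encodes cyclin D1, at 0.78 (adjusted p = 0.174 by limma). *Egr3* and *Etv4* were too low to be tested. Over the 5 lists together, 0 of 51 tested rows were called by limma and 8 had an unadjusted p under 0.05, a smaller share than among all genes.

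A list of 13 genes induced by stress during tissue handling, which includes *Fos*, *Egr1* and *Ier2*, was higher in the same libraries as *Dusp1*. Its summed level was 737.8, 838.6 and 773.7 FPKM in *Gdpd3*+/+ and 1587, 1098 and 2186 FPKM in *Gdpd3*-/- libraries. Of its members 11 had every *Gdpd3*-/- library above the others, against 23.5% of all genes tested. Of the 13 genes 2 were called higher (*Fosb* and *Hspa1b*), against 1.09% of all genes tested, and the median log2 fold change was 1.11. The *Gdpd3*-/- replicates stood in the order 7, 5, 6 for the summed level of this list, for *Dusp1* and for *Dusp5*. For *Dusp2* the order was 5, 6, 7. Of the single genes of the list, *Fos*, *Jun*, *Junb*, *Egr1*, *Ier2*, *Nr4a1*, *Zfp36* and *Btg2* also stood in the order 7, 5, 6. The called *Fosb* and *Hspa1b*, and *Hspa1a*, stood in the order 7, 6, 5, and *Jund* and *Atf3* in the order 5, 7, 6. The order 7, 5, 6 was also that of *Spred1* and of the summed plasma cell list, which were lower in every *Gdpd3*-/- library. It was that of the sum of *Flt3* and *Cd48* as well, which was higher in every one. An order of 3 libraries is a description and was not tested. *Dusp1* is itself an immediate early gene, and whether its rise and the level of this list have a common source was not tested. For the muscle list the order was 6, 5, 7, as for *Spry2*. Replicate 7 had the least muscle RNA of the *Gdpd3*-/- libraries and the highest *Dusp1* and *Dusp5*.

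**Figure D3:**
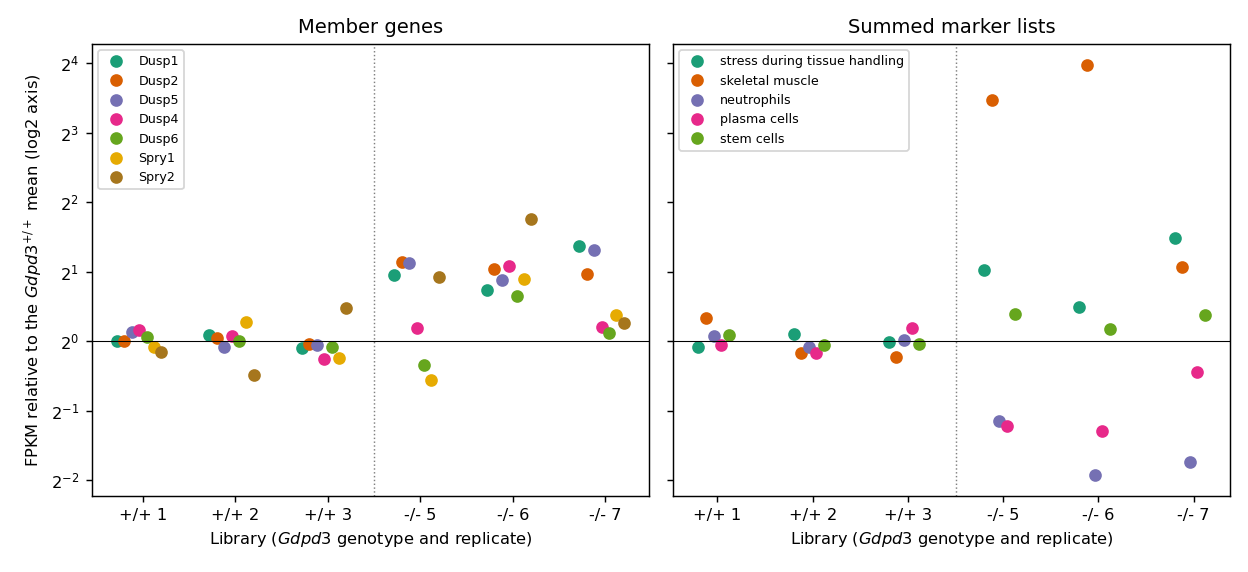
Level of 7 members (left) and summed level of 5 marker lists (right) in each library, as FPKM divided by the Gdpd3+/+ mean, on a log2 axis. Each point is 1 gene or list in 1 library. Dusp1 and Dusp5 are highest in Gdpd3-/- replicate 7, where the summed stress list is also highest. Spry1, Spry2, Dusp4 and Dusp6 are highest in replicate 6, where the muscle list is highest. Of these only Spry2 has the order 6, 5, 7 of the muscle list, and Spry1, Dusp4 and Dusp6 have the order 6, 7, 5.

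The calls were repeated without the libraries in doubt. Without *Gdpd3*-/- replicate 7, in which the stress list was highest, *Dusp1*, *Dusp2* and *Dusp5* were all called higher, and so were 9.83% of all genes tested. Without replicates 5 and 6, which held the most muscle RNA, the same 3 genes were called against 8.42% of all genes. That fit lends no support to the calls, because it assumed that the 1 remaining *Gdpd3*-/- library varied like the *Gdpd3*+/+ ones, whereas the *Gdpd3*-/- libraries were more spread. Without replicate 5 only *Dusp2* was called, and 187 of the 23727 genes tested. Without any 1 of the *Gdpd3*+/+ libraries none of the 9 was called by limma. Hardly any gene was called in these fits, with 0, 1 and 21 of all genes without replicates 1, 2 and 3. An unadjusted limma p under 0.05 was found for 3 of the 9 each time. Over all genes it was found for 3356 of 24887, 3525 of 24855 and 3238 of 24862 tested. The adjusted p by limma with 1 library left out was 0.0128 to 0.247 for *Dusp1*, 0.00460 to 0.125 for *Dusp2* and 0.0243 to 0.245 for *Dusp5*.

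The calls also varied with the scaling of the libraries. With FPKM as deposited, all genes had a median log2 fold change of 0.24, and trimmed-mean scaling and quantile normalization moved it to 0.03 and -0.01. Under trimmed-mean scaling *Dusp2* was called with a log2 fold change of 0.83, whereas *Dusp1* at 0.80 (adjusted p = 0.0731 by limma) and *Dusp5* at 0.88 (adjusted p = 0.0659 by limma) were not. Relative to the median of all genes the 3 were higher in all 16 settings, by at least 0.62, 0.75 and 0.77. *Dusp6* was at 0.03 under quantile normalization and at -0.08 under trimmed-mean scaling, so no direction is given for it.

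**Figure D4:**
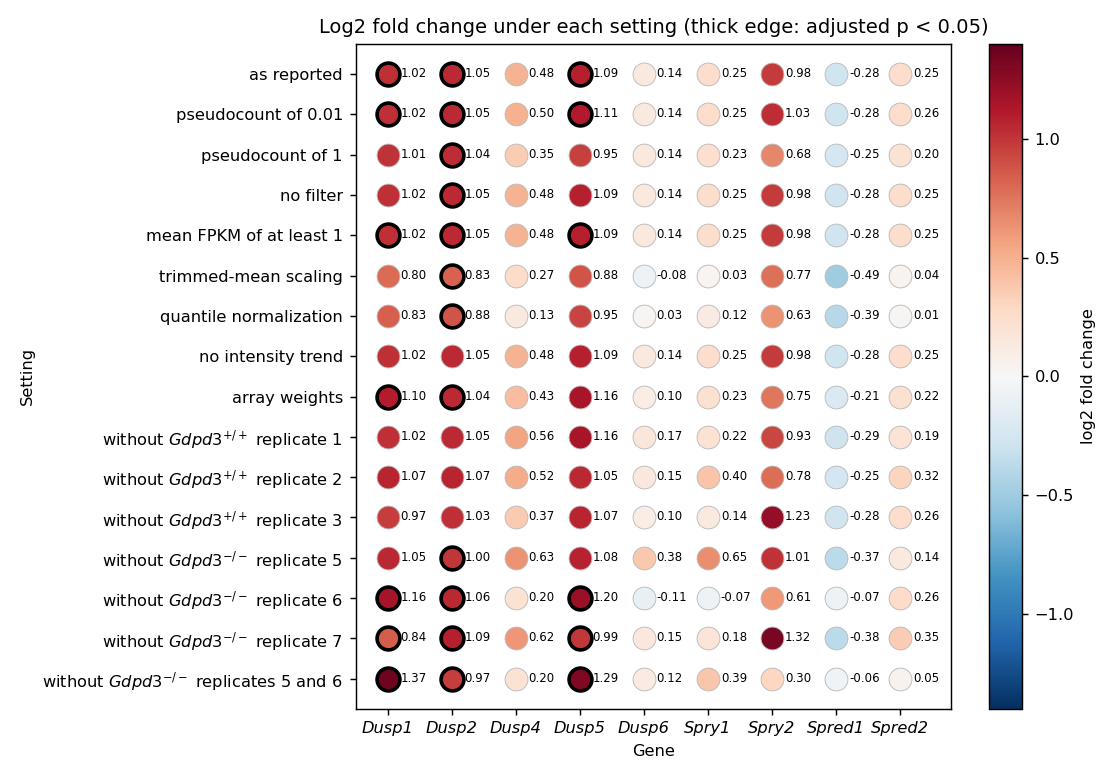
Log2 fold change, Gdpd3-/- minus Gdpd3+/+, of the 9 members (columns) under each of 16 settings (rows), printed beside each point and shown by its colour. A thick edge marks an adjusted p under 0.05. Dusp1, Dusp2 and Dusp5 stay positive throughout but keep all 3 calls in only some settings, and Dusp6 changes sign in 2.

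The genes most like the most variable members were found from centred log2 profiles over the 6 libraries, among 15102 genes whose FPKM averaged 1 or more. For *Dusp5* they were *Ccdc19*, now named *Cfap45*, *Nfkbiz* and *Ikzf2*, with root mean square differences of 0.0995, 0.106 and 0.119 on the log2 scale. *Nfkbiz*, which encodes a nuclear regulator of NF-kappaB, was at 4.05, 2.94 and 2.96 FPKM in *Gdpd3*+/+ and at 7.16, 6.81 and 8.89 FPKM in *Gdpd3*-/- libraries. For *Dusp1* they were *4921525B02Rik*, now *Slain1os*, *Gm6905* and *Osbpl5*, at 0.0948, 0.0965 and 0.113. For *Spry2* the nearest were *Hivep3*, *2310015A10Rik* and *Rfx2*, at 0.141, 0.192 and 0.193. *Hivep3* shared the peak in replicate 6, at 4.18 FPKM against 0.864 to 1.88 FPKM in the other 5 libraries. With 6 libraries in 2 groups such likeness is a description.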

How the data were processed

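RNA-Seq of 6 LT-CML stem cell libraries was used, and the label for genotype set the groups. The libraries were made with the SMART-Seq v4 kit and read in pairs of 150 bases, and whether counting used strand is not given in the sources used here. The submitters' processing notes name Trimmomatic, Trim Galore, cutadapt 1.16, STAR 2.6.1a, featureCounts 1.6.1, DESeq2 and the build mm9. The authors deposited FPKM values for 36976 genes, which are normalised for gene length and library size and are not counts. A further table holds the authors' own comparison of the genotypes (base mean, log2 fold change, standard error, Wald statistic, p-value and adjusted p-value) and was not used.

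Values were transformed as log2(FPKM + 0.1), and 24689 genes whose FPKM averaged 0.05 or more over the 6 libraries were tested with limma 3.58.1 (R 4.3.3), using an intensity trend and a model of genotype alone. The pseudocount understates changes of low genes. P-values were two-sided and adjusted over all genes tested, and they measure the spread between 3 libraries a genotype. Exact permutation tests used SciPy 1.17.1. The fit was tested on simulated data in which both groups had the spread of the *Gdpd3*+/+ libraries. That simulation could not show how the fit behaves with the wider spread of the *Gdpd3*-/- libraries. Each value times gene length was a whole multiple of 1 step per library (tolerance 0.1 of a step), and these steps were taken as covered bases to infer depth. Read numbers are covered bases divided by 150, are approximate, and cover no error from amplification. Of 36976 identifiers, 32350 (87.5%) matched the table of current symbols.

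Named genes are all 9 members, the other MAPK phosphatases and Sprouty and Spred genes, up to 3 non-overlapping genes with the largest fold change from each other pathway list, *Gdpd3*, and the 3 nearest profiles of the 3 most variable members. The choice of *Egr1*, *Ier3*, *Mapk9* and *Sos1* followed a view of their values. The members, lists and tests were chosen with earlier results of these data known. Positions of genes are in mm9 as deposited, and promoter windows are in GRCm38.p6. No exon of a member overlapped another listed gene. Alternatives changed the pseudocount (0.01 or 1), the filter (none or a mean FPKM of 1), the scaling (trimmed mean or quantile), the intensity trend, library weights and the libraries included.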

Additional observations from a re-analysis of the deposited data

How the results depend on the processing

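The 3 member calls became 1 (*Dusp2*) with a pseudocount of 1, no filter, trimmed-mean scaling or quantile normalization, and 0 with no intensity trend. With no intensity trend limma still gave 3 of 9 members at an unadjusted p under 0.05, against 4913 of the 24689 genes tested. With 1 library left out they ranged from 0 to 3. Calls over all genes, 422 as reported, were 225 with a pseudocount of 1, 213 with no filter, 673 with a mean FPKM of at least 1, 153 with no intensity trend, 240 with array weights, 0 to 3413 with 1 library left out and 2294 without *Gdpd3*-/- replicates 5 and 6. At 0, without *Gdpd3*+/+ replicate 1, limma gave 3356 genes at an unadjusted p under 0.05. The cause of these shifts was not tested. The 5 other pathway lists, with 0 calls and 8 genes at an unadjusted p under 0.05, had 0 to 6 with 1 library left out, namely *Ier2* and *Ier3* higher without *Gdpd3*-/- replicate 6, and *Ccnd1*, *Dusp7*, *Fos* and *Map2k2* higher and *Mapk9* and *Sos1* lower without replicate 7, and 4 without replicates 5 and 6 (*Egr1*, *Fos*, *Ier2* and *Map2k2*, all higher). The log2 fold change of *Dusp6* turned to -0.0793 with trimmed-mean scaling, and with 1 library left out ranged from -0.112 to 0.381 for *Dusp6* and from -0.0747 to 0.646 for *Spry1*, lowest without *Gdpd3*-/- replicate 6 and highest without replicate 5. No other member changed sign. No paired analysis was possible because the genotypes share no replicate number. Column names of the *Gdpd3*+/+ libraries carry a library code that the others lack, so a batch and genotype cannot be told apart. *Spry2* and *Dusp4* had the fewest reads, and whether depth limited their tests was not tested.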
